A study of Mus musculus with 18 samples.

Results

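The nuclear genes for subunits of the respiratory chain were followed in aortae of mice that carry an edited *Tspan2* CArG box. A gene was taken where its symbol starts with Ndufa, Ndufb, Ndufc, Ndufs, Ndufv, Uqcr, Cox4 to Cox8 or Atp5 and where it had at least 10 counts in every library of both experiments. *Cox8b* and *Cox7a1*, markers of brown fat and striated muscle, and 9 symbols that hold -ps were left out. The pattern matched 102 of 55453 symbols, and 84 genes remained after those 11 exclusions and 7 more with lower counts. Among the -ps symbols, *Ndufb1-ps* was left out by its name alone, with lowest counts of 447 in an HDR and 3212 in a PE2 library. Just inside the limit lay *Cox4i2* and *Cox6b2*, with lowest counts of 13 and 15 in a library, and just outside lay *Cox6a2*, the muscle form of a cytochrome c oxidase subunit, whose lowest count was 0 among HDR and 3 among PE2 libraries. The 84 genes comprise 7 core and 29 accessory subunits of complex I, 8 of its assembly factors, 8 subunits of complex III, 15 of complex IV and 17 of ATP synthase. The symbol pattern therefore takes in the 8 Ndufaf assembly factors, which help to build complex I, are not subunits and are described apart. *Cox7a2l*, which promotes the joining of complexes III and IV, is counted here with complex IV.

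Bulk RNA-seq was performed on single aortae of 5 wild-type and 5 sg/sg mice (HDR, 12 weeks of age) and of 4 wild-type and 4 peg/peg mice (PE2, 8 weeks of age). Per the methods, the periadventitial tissue was cleaned off the aortae before RNA was extracted. Both mutants are homozygous for an edited CArG box, the site in the *Tspan2* promoter that binds serum response factor. Homology-directed repair replaced adjacent bases in sg/sg mice, and prime editor 2, a Cas9 nickase joined to a reverse transcriptase, changed a C to a G in peg/peg mice. The labels name C57BL/6 as the strain of the HDR mice and FVB/N/B6(Cg)-Tyrc-2J/J for PE2, whereas both lines go back, per the methods, to a cross of FVB/NJ with the albino B6 strain followed by breeding to C57BL/6J. Each HDR genotype held 3 females and 2 males, and the column names do not give which HDR library came from which sex. The PE2 wild types were 3 females and 1 male (WT_4), and all 4 peg/peg mice were female. Libraries are called by genotype and number, and HDR numbers 2 to 6 belong to the columns of the table and pair no mice. HDR libraries held 17290992 to 24880385 counts and PE2 libraries 38820265 to 44895615. *Tspan2* itself averaged 209 ± 60.1 CPM (counts scaled to library size; SD, n = 5) in wild-type and 24.9 ± 8.12 CPM (n = 5) in sg/sg aorta, and 218 ± 45.05 CPM (n = 4) in wild-type and 19.96 ± 6.74 CPM (n = 4) in peg/peg aorta. It was called in both experiments, and the smooth muscle markers *Acta2* (5030 to 24747 CPM) and *Myh11* (4726 to 15924 CPM) were high in every library.

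Oxidative phosphorylation joins these proteins in the inner mitochondrial membrane. Complex I takes electrons from NADH, complex III passes them from ubiquinol to cytochrome c, complex IV hands them to oxygen, and the proton gradient that results drives ATP synthase. Most subunits come from the nuclear genes followed here and a few from mitochondrial DNA, and several subunits exist in tissue-dependent forms. Vascular smooth muscle relies on glycolysis as well as on respiration, while brown fat, which lies along the aorta, is very rich in mitochondria.

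The promoters of many such genes carry sites for NRF1, for the ETS factor GABP and for YY1. RefSeq promoters (GRCm38.p6, 250 bases before to 50 after each start) were matched for 69 of the 84 genes. The NRF1 motif, searched on both strands as GCGC, any base and TGCGC, was held by 17 of 69 (24.6%), against 5.19% of 27025 symbols with a promoter and 10.7% of 10994 other genes tested in both experiments. The ETS motif CCGGAAG was also held by 17 of 69 (24.6%), against 9.93% of all symbols and 18.8% of the other tested genes. For the YY1 motif AAGATGGCG the count was 8 of 69 (11.6%), against 1.64% and 3.23%. Matches of different motifs overlapped in 0 of the 74 promoters of these genes. By gene, the NRF1 motif was held by 6 of 14 ATP synthase genes and 7 of 27 genes of accessory complex I subunits. It was held by 1 of 11 complex IV genes and 0 of 5 genes of core complex I subunits. A match is a run of letters and not a measured binding site. Stretches from 4 promoters are printed as examples of such matches, 3 from genes described further on and *Atp5h* as one of the 6 ATP synthase genes with an NRF1 match. Matches to either strand of a motif are in capitals, and each stretch is read 5′ to 3′ on the minus strand, the strand of all 4 genes:
Ndufb4, chr16:37654535-37654574: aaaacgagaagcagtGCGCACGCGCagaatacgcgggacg
Uqcr11, chr10:80406866-80406902: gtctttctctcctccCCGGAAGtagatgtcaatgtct
Cox6a1, chr5:115349051-115349135: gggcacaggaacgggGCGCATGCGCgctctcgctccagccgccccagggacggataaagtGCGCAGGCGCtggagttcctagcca
Atp5h, chr11:115420036-115420075: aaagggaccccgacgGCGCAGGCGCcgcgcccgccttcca
The *Ndufb4*, *Cox6a1* and *Atp5h* stretches hold NRF1 matches and that of *Uqcr11* an ETS match, and *Cox6a1* holds a pair of NRF1 matches in 1 promoter. Outside the printed stretches, *Cox6a1* and *Atp5h* are also among the genes with an ETS match. The upstream end of the *Cox6a1* stretch overlaps the first exon of the lincRNA Gm42903 on the opposite strand.

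The levels of these genes in wild-type aorta spanned more than 2 orders of magnitude when counts were divided by transcript length, which was annotated for 82 of the 84. Each level is in CPM per kilobase of the principal transcript, as mean ± SD. *Atp5b*, the catalytic beta subunit of ATP synthase, was at 376 ± 145 (n = 5) in HDR and 564 ± 143 (n = 4) in PE2 wild types. *Cox4i1*, the common form of a regulatory complex IV subunit, was at 664 ± 135 (n = 4) in PE2 and was the highest of its complex in HDR as well, ahead of *Cox6b1* at 238 ± 109.8 (n = 5). *Uqcrh*, the hinge protein of complex III, was at 266 ± 74.3 and 627 ± 108. These 3 genes led their complexes, and their SD ranges overlapped in each experiment. Assembly factors were lower, with class medians of 7.67 in HDR and 12.7 in PE2, and *Ndufaf6* was lowest at 2.74 ± 0.658 and 3.67 ± 0.592. At the bottom of complex IV stood *Cox4i2*, a lung-enriched form of *Cox4i1*, at 1.74 ± 0.475 and 5.72 ± 1.86. The choice of length moves these levels and some of the ranks. With the union of all exons in place of the principal transcript, the median of the genes with a length went from 60.5 to 34.4 in HDR and from 130 to 78.9 in PE2, *Atp5a1* replaced *Atp5b* and *Cox6a1* replaced *Cox4i1* at the top of their complexes, and *Atp5l* and *Cox6b2* took the lowest places of ATP synthase and complex IV. Processed copies of several of these short genes can also draw reads away. Whether this affected the levels of *Uqcrh*, *Atp5l*, *Ndufs5* and *Ndufb4* was not tested, so these levels are uncertain.

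**Figure D1:**
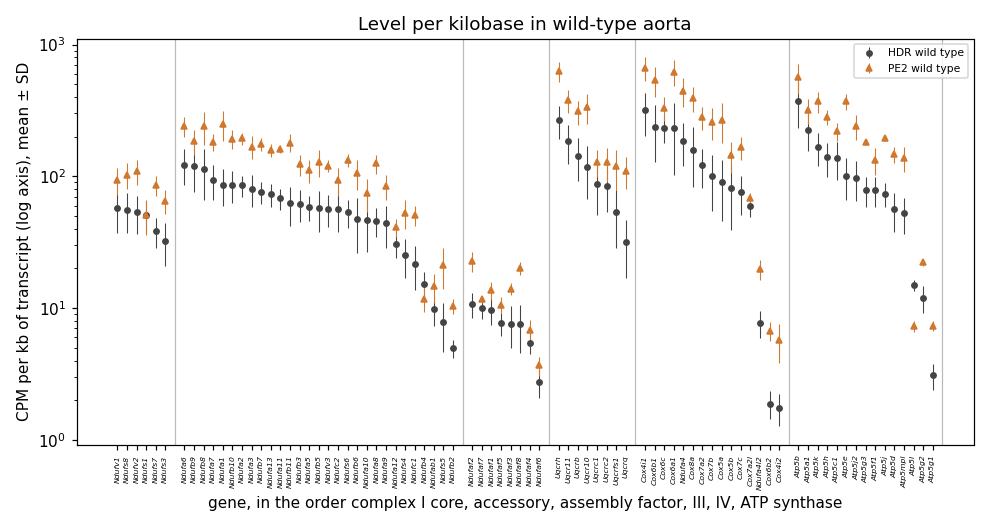
Level of 81 genes in wild-type aorta, in CPM per kilobase of principal transcript on a log axis, with genes grouped by complex; circles are means of 5 HDR and triangles means of 4 PE2 libraries, and bars are SDs. *Atp5b* at 376 and 564 and *Cox4i2* at 1.74 and 5.72 lie near the ends of the range.

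Isoform pairs showed the same leading member in both experiments and both genotypes. *Cox4i2* was at 0.567 ± 0.0861% of the *Cox4i1* level per kilobase in HDR wild types (n = 5) and 0.883 ± 0.304% in PE2 wild types (n = 4). *Cox6b2*, known as the testis form, was at 0.950 ± 0.522% and 1.34 ± 0.501% of *Cox6b1*. *Ndufa4l2*, a hypoxia-induced relative of *Ndufa4*, was at 4.28 ± 0.708% and 4.58 ± 1.07% of it. Of the 3 genes for the identical c subunit of the ATP synthase rotor, *Atp5g3* led, with *Atp5g1* at 3.95 ± 0.592% and 4.07 ± 0.473% and *Atp5g2* at 15.2 ± 0.856% and 12.3 ± 0.855% of it. *Cox7a2l*, which promotes the joining of complexes III and IV, was at 50.7 ± 9.98% and 25.2 ± 5.67% of *Cox7a2*. In the mutants *Cox4i2* was at 0.563 ± 0.226% (n = 5) in sg/sg and 0.800 ± 0.305% (n = 4) in peg/peg aorta. None of the 12 ratios passed an exact two-sided permutation test between genotypes, with adjusted p from 0.612 to 0.829. The smallest unadjusted p possible was 0.00794 with 5 against 5 and 0.0286 with 4 against 4 libraries. After adjustment over all 12 ratios, a lone ratio at either of these values could not have passed. The adjusted test therefore cannot decide whether a single pair changed. The lowest unadjusted p of this test was 0.171 (*Atp5g2* to *Atp5g3* in PE2), so no ratio reached the smallest p possible. The muscle form *Cox6a2* and the testis form *Cox7b2* were below the count limit.

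The RNA-seq was made to look for effects of the edits beyond *Tspan2*, and for the respiratory chain no gene passed the test in either experiment. Of the 84 genes, 0 were called in sg/sg against wild-type aorta by edgeR (adjusted p under 0.05), with a smallest adjusted p of 1.00, and the background over all 16423 genes tested was 0.00609%. In peg/peg against wild-type aorta 0 of 84 were called, with a smallest adjusted p of 0.861 and a background of 0.0061% of 16401 genes. DESeq2 also called 0 of 84 in each, with backgrounds of 0.00933% of 42879 genes in HDR and 0.189% of 17481 in PE2, those with an adjusted p. Among the genes tested by edgeR, DESeq2 called 4 of 16423 in HDR and 30 of 16401 in PE2. At an unadjusted p under 0.05, edgeR gave 0 lower and 0 higher genes in HDR, where the background was 1.63% lower and 0.353% higher, and 0 and 0 in PE2, where it was 1.27% and 3.04%. DESeq2 gave 0 in HDR and 1 in PE2, *Ndufb4*, at that level, against backgrounds in either direction of 2.21% and 5.13% of the genes tested by edgeR to which it gave a p. Groups that did not overlap were found for 0 of 84 genes in both experiments, against 0.195% lower and 0.122% higher of all genes in HDR and 1.1% and 1.43% in PE2. The difference between both genotype effects, an interaction term over 18 libraries, was called for 0 of 84, with a smallest adjusted p of 0.977 and a background of 0% called and 5.13% at unadjusted p under 0.05.

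Most fitted fold changes nevertheless lay below 0. In HDR this held for 80 of 84 genes, against a background of 49.1%, with a median log2 fold change of -0.20 where the median of all genes was 0.00. In PE2 it held for 74 of 84, against 47.8%, with a median of -0.17 where that of all genes was 0.01. The genes move together from library to library, so these counts are not 84 separate observations. Class medians in HDR ran from -0.26 in complexes III and IV through -0.19 in accessory and -0.17 in core complex I subunits and -0.17 in ATP synthase to -0.08 in assembly factors. In PE2 they were -0.32 in complex III, -0.24 in the core and -0.21 in the accessory subunits of complex I, -0.21 in complex IV, -0.11 in ATP synthase and -0.07 in assembly factors. The HDR median rested largely on 1 library: without WT_6 it was -0.02, with 52 of 84 genes below 0, and without sg/sg_4 it was -0.31. The PE2 median was -0.30 without WT_3 and -0.10 without WT_2 or peg/peg_1. Without PE2 WT_3, 12 genes were lower at an unadjusted p under 0.05, and without peg/peg_4 it was 5 (*Atp5d*, *Ndufa8*, *Ndufb4*, *Ndufb7* and *Uqcr11*). The shares of all genes lower in those fits were 1.62% and 3.49%. In HDR, 2 were lower without WT_4 (*Atp5k* and *Cox6c*), 2 without sg/sg_4 (*Cox5a* and *Ndufb8*) and 1 without WT_2 (*Atp5mpl*), where the shares of all genes lower were 2.6%, 2.25% and 1.94%. With every gene that has a count in the HDR fit, 1 was lower (*Atp5mpl*), against 1.45% of all genes, and with the replicate number as a block in PE2, 1 was lower (*Ndufa8*), against 1.24%.

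**Figure D2:**
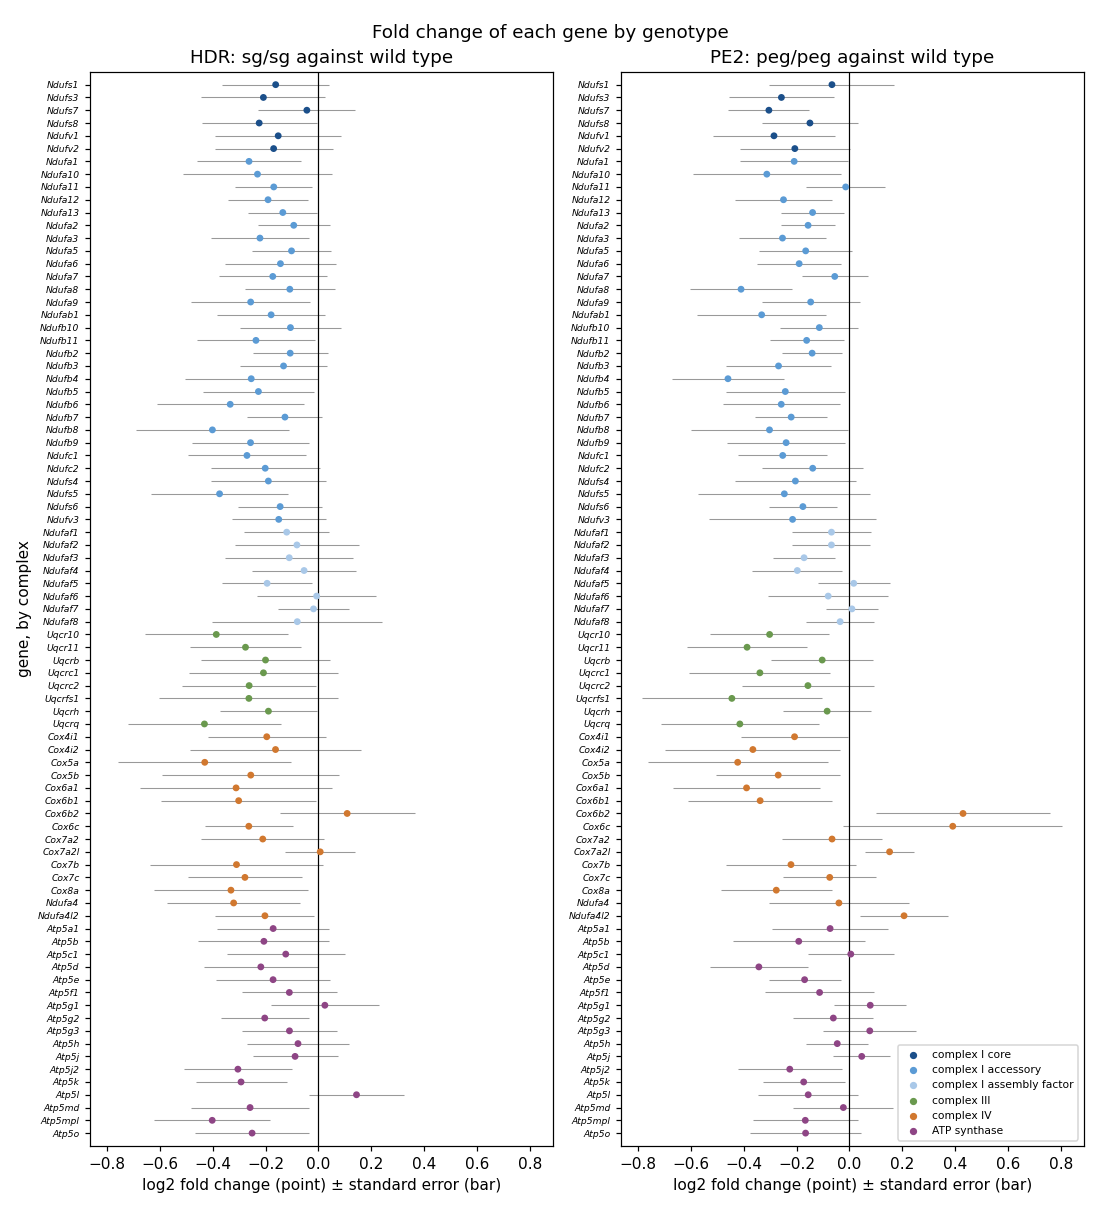
Log2 fold change of 83 of the 84 genes, mutant over wild type, in HDR (left, 5 against 5) and PE2 aorta (right, 4 against 4); points are edgeR estimates coloured by complex and bars their standard errors. Most points lie left of 0 in both panels, and none was called.

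Libraries of 1 genotype differed widely. The 84 genes together gave 5113, 4694, 5135, 7591 and 9654 CPM in HDR WT_2 to WT_6 and 4906, 4717, 7419, 5127 and 5705 CPM in sg/sg_2 to sg/sg_6. WT_6, WT_5 and sg/sg_4 stood above the other 7 libraries, so that the genotypes overlapped. In PE2 the sums were 14150, 14256, 8929 and 12467 CPM in WT_1 to WT_4 and 8687, 12450, 10795 and 12274 CPM in peg/peg_1 to peg/peg_4. WT_3 and peg/peg_1 were the lowest of the 8, one of each genotype. WT_6 had the highest level of 74 of the 84 genes in HDR. In PE2, WT_2 was highest for 40 and WT_1 for 26 genes, while peg/peg_1 was lowest for 38 and WT_3 for 25. Between the HDR libraries with the highest and lowest sums, WT_6 and WT_3, 82 of 84 genes were higher in WT_6, by a median of 0.89 on the log2 scale. Between PE2 WT_2 and peg/peg_1 it was 81 of 84, by a median of 0.68. These last values describe libraries picked for their sums.

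**Figure D3:**
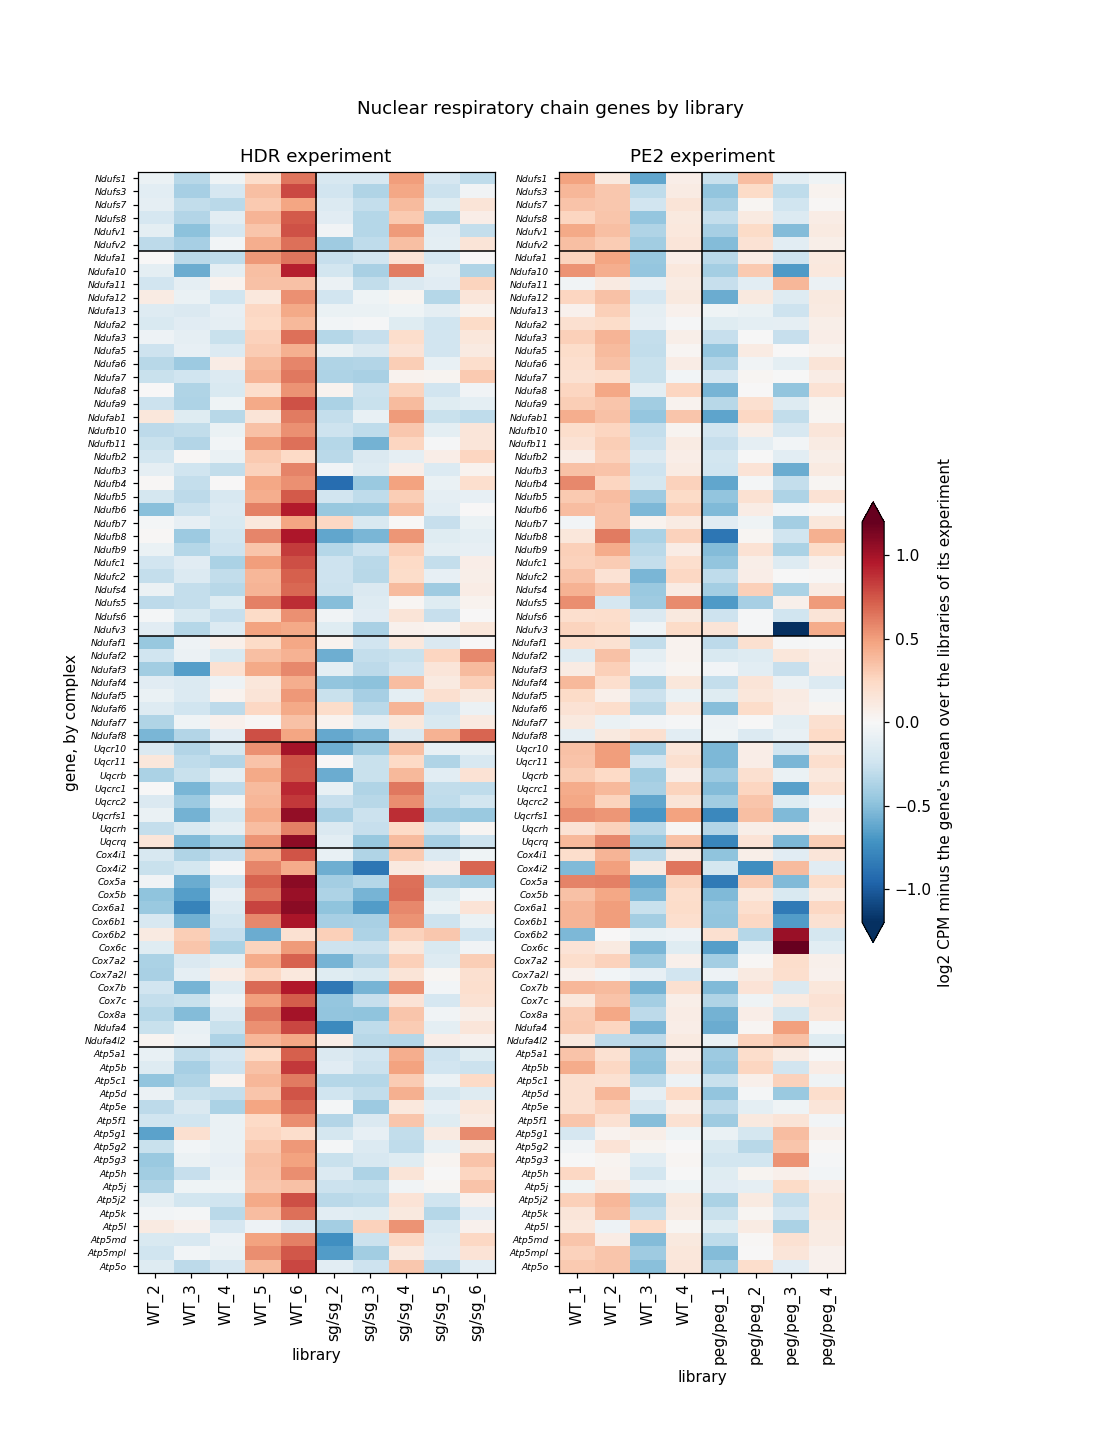
Heat map of log2 CPM of 83 of the 84 genes (rows, by complex) in each library (columns), less the gene's mean over the libraries of its experiment, with the vertical line between wild type and mutant; colours are limited at 1.2 in either direction. HDR WT_6 is red for nearly all genes, and *Cox6c* stands out in peg/peg_3.

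**Figure D4:**
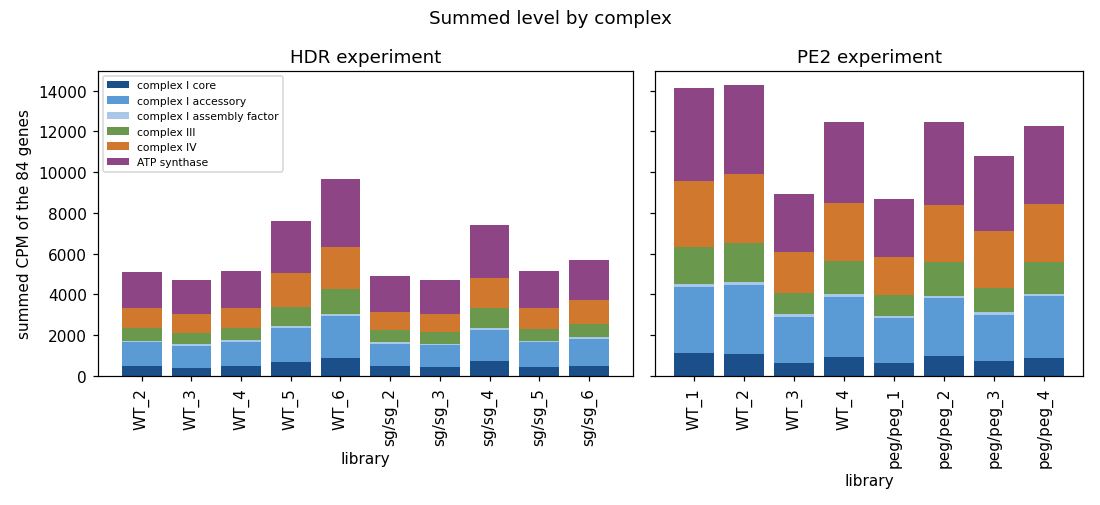
Summed CPM of the 84 genes in each library, stacked by complex, on a linear axis from 0. HDR sums run from 4694 to 9654 and PE2 sums from 8687 to 14256, with both genotypes among the low and the high libraries.

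Markers of fat and of macrophages differed between these libraries as well. Brown fat is rich in the subunits, and a list of 10 markers, among them *Ucp1*, the uncoupling protein of brown fat, and the excluded *Cox8b* and *Cox7a1*, summed to 787, 329, 504, 1048 and 1504 CPM in WT_2 to WT_6 and 534, 487, 1505, 391 and 309 CPM in sg/sg_2 to sg/sg_6. The 3 libraries with the highest sums of the 84 genes were also the 3 with the most brown fat signal, whereas sg/sg_6 was lowest of the 10 for brown fat and next after those 3 for the 84 genes. White fat markers had the same 3 libraries at the top, with 4542, 2226, 2470, 4915 and 9746 CPM in WT_2 to WT_6 and 3341, 3832, 5223, 2585 and 1802 CPM in sg/sg_2 to sg/sg_6. Macrophage markers were highest in WT_6 and WT_5, at 681 and 407 CPM against 177 to 343 CPM in the other 8. By edgeR, 6 of 7 were lower in sg/sg at an unadjusted p under 0.05, against 1.63% of all genes, with 0 called. All 7 lay above 0 in PE2, with a median log2 fold change of 0.59 and 0 called. In PE2 the brown fat list summed to 2066, 2092, 624 and 2460 CPM in WT_1 to WT_4 and 501, 1757, 14.4 and 1445 CPM in peg/peg_1 to peg/peg_4. *Ucp1* was at 1.36 CPM in peg/peg_3 and between 163 and 971 CPM in the other peg/peg libraries. That library held 1210 CPM of skeletal muscle markers, against at most 20.1 CPM in the other peg/peg libraries. Most of this sum came from *Acta1* (756 CPM) and *Ckm* (300 CPM). *Atp2a1*, *Mylpf*, *Myh1* and *Myh4* of the same list were at 0.154, 0.966, 1.34 and 0.988 CPM in peg/peg_3. Macrophage markers summed to 856 CPM there, against 150.2 to 534 CPM in the other PE2 libraries. The mitochondrially encoded subunits of peg/peg_3 summed to 33075 CPM against 76335 to 120234 CPM in the other PE2 libraries. No brown fat marker was called in either experiment. Fewer cells of a type and less RNA per cell cannot be told apart in such bulk samples, and the part of these cell types in the levels of the 84 genes was not tested.

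**Figure D5:**
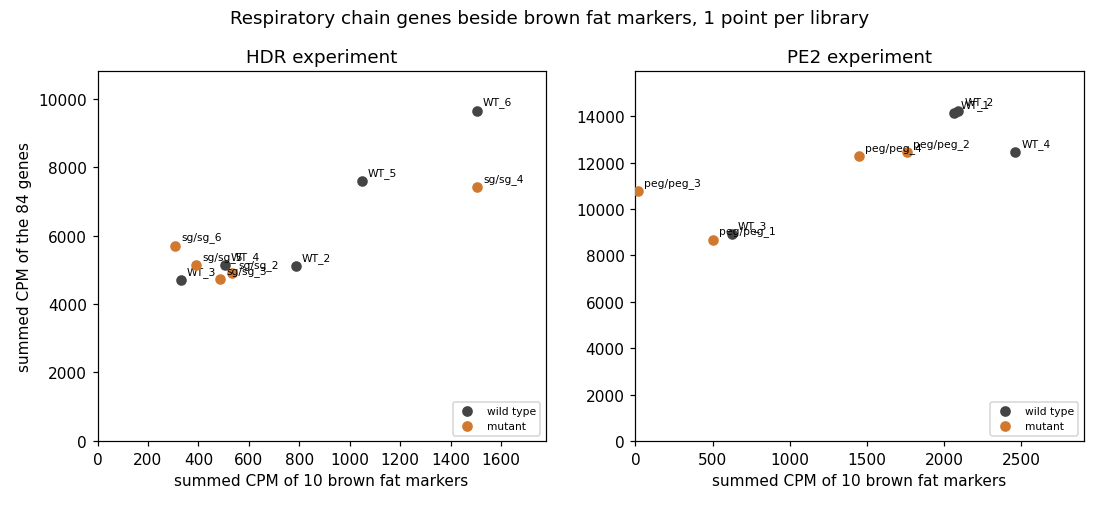
Summed CPM of the 84 genes (vertical axis) against summed CPM of 10 brown fat markers (horizontal axis), 1 point per library, wild type in grey and mutant in orange. In HDR, WT_5, WT_6 and sg/sg_4 lie at the upper right, and in PE2 peg/peg_3 lies at 14.4 on the horizontal axis with a sum of 10795.

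The core subunits of complex I carry its flavin, iron-sulfur clusters and quinone site. *Ndufs1* (ENSMUSG00000025968, chr1:63143596-63176833, GRCm38), the largest of them, measured 119, 99.2, 120.3, 145 and 195 CPM in HDR WT_2 to WT_6 and 109, 109.7, 177, 109 and 101 CPM in sg/sg_2 to sg/sg_6. WT_6 and sg/sg_4 were high and the groups overlapped, with a log2 fold change of -0.16 ± 0.20 (SE, adjusted p = 1.00). In PE2 aorta *Ndufs1* measured 180.0, 139.9, 83.6 and 136 CPM in the wild types and 107, 166, 118 and 124 CPM in peg/peg, a log2 fold change of -0.07 ± 0.24 (SE, adjusted p = 0.955). *Ndufv1* (ENSMUSG00000037916, chr19:4007384-4012806), which binds the flavin that accepts electrons from NADH, had PE2 values of 190.0, 178, 108 and 151 CPM in wild type and 105, 163, 97.0 and 149 CPM in peg/peg. WT_3 lay among the low mutant libraries, and the log2 fold change was -0.29 ± 0.23 (SE, adjusted p = 0.861). *Ndufs7*, which carries the last iron-sulfur cluster before the quinone, had the smallest unadjusted p of the core in PE2, 0.0808, at a log2 fold change of -0.30 ± 0.15 (SE, adjusted p = 0.861). In HDR the same gene gave -0.04 ± 0.18 (SE, adjusted p = 1.00).

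Accessory subunits surround that core and stabilise it. All 29 had a fitted fold change below 0 in both experiments, and none was called. *Ndufb4* (ENSMUSG00000022820, chr16:37647170-37654453), a membrane arm subunit whose promoter stretch with an NRF1 match is printed above, had the smallest unadjusted p of all 84 genes in PE2, 0.0602. Its PE2 values were 14.3, 11.5, 8.32 and 11.7 CPM in wild type and 6.25, 9.46, 7.86 and 9.77 CPM in peg/peg, and WT_3 lay within the mutant range, at a log2 fold change of -0.46 ± 0.21 (SE, adjusted p = 0.861). In HDR it measured 13.1, 10.6, 13.1, 17.9 and 18.9 CPM in wild type and 6.88, 9.55, 18.2, 12.3 and 14.95 CPM in sg/sg, with -0.25 ± 0.25 (SE, adjusted p = 1.00). *Ndufa8* in PE2 was next, with 109.7, 127, 84.7 and 109.7 CPM in wild type and 62.6, 92.1, 66.0 and 104 CPM in peg/peg and a log2 fold change of -0.41 ± 0.19 (SE, adjusted p = 0.861). In HDR *Ndufa8* gave -0.11 ± 0.17 (SE, adjusted p = 1.00). *Ndufb8*, a membrane arm subunit often used to follow complex I in blots, had 64.0, 46.7, 54.2, 95.2 and 124 CPM in HDR wild type and 41.2, 43.2, 91.2, 57.1 and 58.4 CPM in sg/sg, where WT_5, WT_6 and sg/sg_4 were the high libraries. The log2 fold change was -0.40 ± 0.29 (SE, adjusted p = 1.00) in HDR and -0.30 ± 0.30 (SE, adjusted p = 0.868) in PE2. The fold changes of the 8 assembly factors ran from -0.19 to -0.01 in HDR and from -0.20 to 0.02 in PE2. *Ndufaf3* had the smallest p among them in PE2, with 21.1, 23.9, 18.8 and 19.96 CPM in wild type and 19.2, 17.9, 16.2 and 20.9 CPM in peg/peg and a log2 fold change of -0.17 ± 0.12 (SE, adjusted p = 0.861).

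All 8 complex III genes lay below 0 in both experiments, with none called. *Uqcrfs1* (ENSMUSG00000038462, chr13:30540308-30545362), the Rieske iron-sulfur protein, measured 58.5, 41.7, 53.3, 84.1 and 128 CPM in HDR WT_2 to WT_6 and 47.2, 51.9, 115, 46.1 and 45.4 CPM in sg/sg_2 to sg/sg_6. In PE2 it was at 194, 190.2, 81.0 and 184 CPM in wild type and 77.1, 169.6, 91.2 and 139 CPM in peg/peg. WT_3, peg/peg_1 and peg/peg_3 formed the low end, and the log2 fold changes were -0.26 ± 0.34 (SE, adjusted p = 1.00) in HDR and -0.44 ± 0.34 (SE, adjusted p = 0.861) in PE2. *Uqcrq*, a small subunit near cytochrome b, had an HDR log2 fold change of -0.43 ± 0.29 (SE, adjusted p = 1.00), which was -0.14 without WT_6 and -0.60 without sg/sg_4, and -0.41 ± 0.30 (SE, adjusted p = 0.861) in PE2. Its HDR values were 43.7, 27.4, 30.5, 57.6 and 83.5 CPM in wild type and 36.2, 28.9, 51.6, 30.0 and 33.4 CPM in sg/sg, with WT_6 highest. *Uqcr11*, whose promoter stretch with an ETS match is printed above, had 182, 203, 123 and 165 CPM in PE2 wild type and 99.0, 152, 98.3 and 165 CPM in peg/peg, at -0.39 ± 0.23 (SE, adjusted p = 0.861), and -0.28 ± 0.21 (SE, adjusted p = 1.00) in HDR.

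Complex IV held genes with a wide spread between libraries and several that did not follow the others. *Cox5a* (ENSMUSG00000000088, chr9:57521274-57532426), a core-associated subunit, measured 45.3, 30.9, 39.4, 76.0 and 98.5 CPM in HDR WT_2 to WT_6 and 35.1, 36.8, 73.8, 35.5 and 34.3 CPM in sg/sg_2 to sg/sg_6, with WT_5, WT_6 and sg/sg_4 at the top. In PE2 it was at 214, 216, 92.9 and 170.4 CPM in wild type and 78.6, 175, 98.3 and 166 CPM in peg/peg, and the fold changes were -0.43 ± 0.33 (SE, adjusted p = 1.00) in HDR and -0.42 ± 0.34 (SE, adjusted p = 0.861) in PE2. The HDR value was -0.15 without WT_6 and -0.71 without sg/sg_4. *Cox6a1* (ENSMUSG00000041697, chr5:115345642-115348981), the common form of the subunit whose muscle form was too low to enter, measured 398, 424, 249 and 348 CPM in PE2 wild type and 217, 344, 167 and 356 CPM in peg/peg. The lowest was peg/peg_3, and the log2 fold change was -0.39 ± 0.28 (SE, adjusted p = 0.861), with -0.31 ± 0.36 (SE, adjusted p = 1.00) in HDR. *Cox6c* (ENSMUSG00000014313, chr15:35925886-35938246) behaved otherwise, with 288, 277, 176 and 233 CPM in PE2 wild type and 163, 238, 639 and 236 CPM in peg/peg. The value of peg/peg_3 lay far above the other 7 libraries, and the log2 fold change of 0.39 ± 0.41 (SE, adjusted p = 0.872) became -0.21 without it. In HDR *Cox6c* gave -0.26 ± 0.17 (SE, adjusted p = 1.00). *Cox6b2* was also highest in peg/peg_3, at 8.94 CPM against 3.01 to 4.99 CPM in the other PE2 libraries, with 0.43 ± 0.33 (SE, adjusted p = 0.861) in PE2 and 0.11 ± 0.25 (SE, adjusted p = 1.00) in HDR. *Cox7a2l* varied little, from 66.3 to 89.6 CPM over the PE2 libraries, and its log2 fold change was 0.15 ± 0.09 (SE, adjusted p = 0.861) there and 0.01 ± 0.13 (SE, adjusted p = 1.00) in HDR. *Ndufa4*, first assigned to complex I and since to complex IV, was at 324, 312, 177 and 276 CPM in PE2 wild type and 173, 265, 366 and 257 CPM in peg/peg, with a log2 fold change of -0.04 ± 0.26 (SE, adjusted p = 0.973).

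ATP synthase includes the catalytic head, the rotor ring and the stalks that hold them. *Atp5b* (ENSMUSG00000025393, chr10:128083273-128090391) measured 579.6, 491, 546, 825 and 1160 CPM in HDR WT_2 to WT_6 and 588, 539, 900.1, 552 and 542 CPM in sg/sg_2 to sg/sg_6, with WT_6 and sg/sg_4 the highest of their groups. In PE2 it was at 1348, 1177, 703 and 1092 CPM in wild type and 715, 1177, 843 and 1048 CPM in peg/peg. Neither log2 fold change passed, at -0.21 ± 0.25 (SE, adjusted p = 1.00) in HDR and -0.19 ± 0.25 (SE, adjusted p = 0.887) in PE2. *Atp5mpl*, a small membrane subunit, had the smallest unadjusted p of the 84 genes in HDR, 0.0932, with 23.0, 26.5, 25.8, 40.0 and 45.4 CPM in wild type and 17.0, 20.4, 29.2, 24.7 and 30.3 CPM in sg/sg. The groups overlapped, at a log2 fold change of -0.40 ± 0.22 (SE, adjusted p = 1.00), and PE2 gave -0.17 ± 0.20 (SE, adjusted p = 0.879). *Atp5h*, a stalk subunit whose promoter stretch is printed above, was fitted at -0.08 ± 0.19 (SE, adjusted p = 1.00) in HDR and -0.05 ± 0.12 (SE, adjusted p = 0.938) in PE2, and was chosen for its promoter and not by the rule for named genes. The c subunit genes *Atp5g1*, *Atp5g2* and *Atp5g3* were all highest in peg/peg_3 among the PE2 libraries, at 45.6, 19.9 and 194 CPM. Their PE2 log2 fold changes were 0.08 ± 0.14 (SE, adjusted p = 0.913), -0.06 ± 0.15 (SE, adjusted p = 0.936) and 0.08 ± 0.18 (SE, adjusted p = 0.933). In all, 11 of the 84 genes were highest in peg/peg_3 and 13 were lowest there. *Atp5l*, the g subunit of the membrane part, had an HDR log2 fold change of 0.14 ± 0.18 (SE, adjusted p = 1.00), which was 0.0065 without sg/sg_4, on values of 9.05, 8.70, 7.28, 8.03 and 7.44 CPM in wild type and 6.33, 10.2, 12.2, 7.34 and 8.67 CPM in sg/sg.

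Other genes of mitochondrial respiration, on lists written with earlier results known, gave no called gene either. The 4 subunits of complex II, which links the tricarboxylic acid cycle to the chain, all lay below 0 in both experiments, with medians of -0.20 in HDR and -0.30 in PE2. All 16 tricarboxylic acid cycle genes lay below 0 in both, with medians of -0.20 and -0.27. Of 15 regulators of mitochondrial biogenesis, 5 lay below 0 in HDR and 11 in PE2, with medians of 0.03 and -0.09. Their summed level ran from 489 to 553 CPM over the HDR libraries, a narrower range than that of the 84 genes. Of 77 mitochondrial ribosomal protein genes tested, 65 lay below 0 in HDR and 66 in PE2, with medians of -0.09 and -0.13, and 0 were called. In PE2, 4 of them were lower at an unadjusted p under 0.05 (edgeR), against 1.27% of all genes. Of 14 cytochrome c and coenzyme Q genes, 13 lay below 0 in each experiment. In PE2 *Coq10b* lay above 0, at 0.39 ± 0.10 (SE, adjusted p = 0.861), and its groups did not overlap, against 1.43% of all genes. The 7 mitochondrially encoded subunits tested had medians of -0.01 in HDR and -0.23 in PE2.

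The 84 genes stood higher in PE2 than in HDR wild types, by a median of 2.12-fold in CPM, where the median of 14761 genes tested in both was 1.07-fold. All PE2 wild types lay above all HDR wild types for 48 of the 84 genes, against 26.1% of all genes, and below them for 1 gene, *Atp5l*, against 21.2%. The ratio ran from 0.489 for *Atp5l* to 3.65 for *Atp5e*, the epsilon subunit of the ATP synthase head. Cytosolic ribosomal protein genes showed a similar median of 2.02-fold. Age, labelled strain and depth differ together between the experiments and cannot be told apart, and the tables were normalized separately, so no test was made.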

How the data were processed

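Bulk RNA-seq of 18 aortae was used, and groups came from the labels and the column names. The authors deposited raw counts per gene symbol, made with fastp, STAR 2.7.0f on GRCm38 with Gencode annotation, and featureCounts of Subread 1.6.4. The strand setting of the counting is not given in the sources used here. Kit and read length in the labels disagree with those in the methods. Tables normalized with DESeq2 1.22.1 by the authors were not used, and 0 columns of per-sample values were left unused in the count tables.

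The counts were tested with edgeR 4.0.16 in R 4.3.3 (TMM, filterByExpr, glmQLFit and glmQLFTest on genotype, each experiment alone, Benjamini-Hochberg adjusted p under 0.05 over all genes tested), and the difference between experiments with an interaction contrast. CPM values are TMM-normalized. DESeq2 1.42.0 and limma 3.58.1 (voom) were alternatives, next to other scalings, filters, dispersions and each library left out. The code was tested on simulated data. Summaries and exact permutation tests were made in Python 3.11.15 (scipy 1.17.1, numpy 2.4.6, pandas 2.3.3). Depth limits counting error only, and the p-values set the genotype difference against the spread between single mice.

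The genes and lists were chosen with earlier results of these data known. Genes named are the isoform groups, the core and catalytic subunits, the 3 genes of each class with the smallest unadjusted p in each experiment, and the genes with the highest and lowest level per kilobase in each class. Of 2 length definitions tried, the exon union came first. The principal transcript of Gencode M21 (the longest with the best APPRIS tag) replaced it after the levels had been seen, because rare long transcripts inflate the union. The rule for named genes was then applied under both definitions. Promoters came from RefSeq. The values of 1 of the 84 genes are not reported here by themselves, and that gene counts only in totals.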

Additional observations from a re-analysis of the deposited data

Results flagged for a closer look

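Dixon's ratio, which marks a library that stands apart within its genotype, lay above the 95% critical value in 26 groups of values, 8.44% of those examined. Chance alone flags about 1 in 20 groups, and many of these groups share genes and libraries, so they are not separate observations.

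Library sg/sg_4 stood above the other 4 sg/sg libraries in most cases. Its summed levels were 736 CPM for core complex I subunits (439 to 492 in the others), 960 CPM for complex III (551 to 621) and 2603 CPM for ATP synthase (1698 to 1960). Among single genes, *Atp5a1* was at 696 CPM, *Atp5b* at 900.1 CPM and *Atp5d* at 96.3 CPM there. *Cox5a* was at 73.8 CPM and *Cox6b1* at 182 CPM. *Ndufs1* was at 177 CPM and *Ndufv1* at 125 CPM. *Uqcrc1* was at 198 CPM, *Uqcrc2* at 207 CPM and *Uqcrfs1* at 115 CPM. Lists beside the 84 genes stood apart in the same library, with 782 CPM for complex II, 498 CPM for cytochrome c and coenzyme Q genes, 4545 CPM for the tricarboxylic acid cycle and 1505 CPM for brown fat markers (309 to 534 in the others).

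Library peg/peg_1 was low for complex IV, with 1842 CPM (2775 to 2833 in the others), and for *Uqcrh*, with 259 CPM (338 to 351). Library peg/peg_3 was high for *Cox6c*, with 639 CPM (163 to 238), and for skeletal muscle markers (1210 CPM), cardiac muscle markers (1133 CPM) and cytosolic ribosomal proteins (28592 CPM). Not all markers of these muscle lists were high in it. Of the cardiac list, *Actc1* and *Myl4* were at 509 and 91.8 CPM in peg/peg_3, and *Myh6*, *Nppa* and *Ryr2* at 1.34, 0.395 and 7.78 CPM. Smooth muscle markers were also uneven in peg/peg_3. *Des*, *Cnn1* and *Mylk* were at 5570, 6160 and 5806 CPM, against 92.0 to 111, 1106 to 2151 and 831 to 1420 CPM in the other PE2 libraries. *Acta2*, *Smtn* and *Lmod1* lay within the range of the other PE2 libraries. Endothelial markers summed to 556 CPM in peg/peg_3, against 1270 to 2998 CPM in the others. PE2 WT_3 was low for *Uqcrfs1*, with 81.0 CPM (184 to 194), and high for cardiac muscle markers, with 147 CPM. HDR WT_3 was high for skeletal muscle markers, with 162 CPM. Of that list, *Acta1*, *Myh2* and *Ckm* were at 76.9, 30.8 and 30.6 CPM in HDR WT_3. *Mylpf*, *Atp2a1* and *Myh4* were at 0.803, 0.709 and 0.331 CPM there.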

How the results depend on the processing

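The count of 0 called genes held in both experiments and in their difference under every alternative run, with smallest adjusted p of 0.669 in HDR, 0.533 in PE2 and 0.611 for the difference. The HDR median log2 fold change ran from -0.31 to -0.02 when 1 library was left out (-0.30 to -0.01 with DESeq2, an alternative chosen after seeing the data) and the PE2 median from -0.30 to -0.10. Genes lower at an unadjusted p under 0.05 numbered 0 to 2 in HDR and 0 to 12 in PE2 with 1 library left out, 1 in HDR with every gene that has a count (*Atp5mpl*), and 1 in PE2 with DESeq2 (*Ndufb4*). The cause of these changes was not tested. With the exon union in place of the principal transcript, a comparison added after seeing the data, median levels per kilobase fell to 34.4 in HDR and 78.9 in PE2 from 60.5 and 130, since the union is longer by construction. Same-numbered PE2 libraries were not alike (correlations of same-numbered deviations -0.05, -0.18, -0.04 and -0.25), which cannot settle whether the numbers pair mice. With the replicate number as a block the median was -0.17 and 1 gene, *Ndufa8*, was lower at an unadjusted p under 0.05. HDR columns carry no number that pairs them.

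With library totals the log2 fold change of *Ndufaf6* in HDR was 0.014 in place of -0.0069. No gene named was called in any of these fits, and the sign of some turned when 1 library was left out. The ranges of such genes were, in HDR, *Atp5a1* -0.32 to 0.024, *Atp5b* -0.38 to 0.032, *Atp5e* -0.28 to 0.011, *Atp5g1* -0.13 to 0.099, *Atp5g3* -0.22 to 0.0083, *Cox4i1* -0.30 to 0.0069, *Cox5b* -0.50 to 0.038, *Cox6b2* -0.0064 to 0.20, *Cox7a2l* -0.083 to 0.069, *Ndufa6* -0.26 to 0.0044, *Ndufa8* -0.20 to 0.035, *Ndufaf2* -0.26 to 0.026, *Ndufaf3* -0.26 to 0.037, *Ndufaf4* -0.16 to 0.056, *Ndufaf6* -0.12 to 0.12, *Ndufaf8* -0.29 to 0.13, *Ndufs1* -0.34 to 0.0045, *Ndufs3* -0.37 to 0.0074, *Ndufs7* -0.15 to 0.083, *Ndufv1* -0.32 to 0.063, *Uqcrc1* -0.44 to 0.047 and *Uqcrfs1* -0.62 to 0.037. In PE2 they were *Atp5a1* -0.22 to 0.038, *Atp5g1* -0.054 to 0.15, *Atp5g2* -0.21 to 0.023, *Atp5g3* -0.14 to 0.15, *Cox6c* -0.21 to 0.60, *Cox7a2* -0.20 to 0.038, *Cox7c* -0.21 to 0.032, *Ndufa4* -0.24 to 0.11, *Ndufaf1* -0.17 to 0.012, *Ndufaf2* -0.14 to 0.050, *Ndufaf5* -0.067 to 0.093, *Ndufaf6* -0.20 to 0.047, *Ndufaf8* -0.14 to 0.017, *Ndufs1* -0.24 to 0.095 and *Uqcrh* -0.20 to 0.0027. The most sign changes came without HDR WT_6 (19 genes) and without peg/peg_1 (8 genes). With 4 or 5 aortae per genotype and sums that differ between libraries of 1 genotype, small shifts were not detectable.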
